A study of Mus musculus with 4 samples.

Results

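The genes of the cardiac contractile apparatus described here encode the thick and thin filaments, the Z-disc, titin and the M-band, the desmin and Xin proteins of the sarcomere's edges, and factors that assemble the sarcomere. A named list of 39 genes was matched to the gene names of the array's probes, and all 39 were found among 30199 gene names, on 60 probes. Each gene was represented by 1 probe, the one with the highest mean processed signal over both channels. Their RNA was measured in microdissected hearts of mouse embryos at embryonic day 9.5, on 4 two-colour Agilent arrays of 1 slide, scanned together. Each array paired a pool of 3 Nkx2.5Cre; Hdac3f/f mutant hearts with a pool of 3 Hdac3f/f control hearts from littermates, so n = 4 pairs of pools. Both groups carried floxed Hdac3 alleles on a mixed CD1/B6/129 background, and the mutants came from Nkx2.5Cre; Hdac3f/+ by Hdac3f/f crosses. The Cre is driven from Nkx2.5, a gene of cardiac progenitors, so the deletion is directed to that lineage, and loss of Hdac3 and presence of the Cre cannot be told apart. In a pool of whole hearts, fewer cardiomyocytes and less RNA per cardiomyocyte cannot be told apart either. Replicates 2, 3 and 4 carry a free-text description of embryonic stem cells that goes against their titles, source names and genotypes, all of which give hearts.

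Sarcomeres are the repeating units that shorten a muscle cell: thick filaments of myosin pull on thin filaments of actin, which are anchored at the Z-disc, while titin spans from the Z-disc to the M-band and sets the length of the unit. The mouse heart begins to beat shortly before this stage, and its early cardiomyocytes carry both atrial and ventricular myosin light chains and several actin isoforms. Hdac3, a class I histone deacetylase, acts with nuclear corepressors to silence genes. The serum response factor SRF and the MEF2 factors activate many sarcomere genes through the CArG box and the MEF2 site in their promoters.

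The probes of 5 genes whose signals and ratios are both given in full below are shown. The array's annotation maps each to an interval of the mm9 genome longer than the probe, as for a probe that crosses a splice junction. The probes of Csrp3 and Tnnc1 also map to longer intervals, of 1915 and 417 bases, and are not shown. Those shown were designed against spliced transcripts and are given 5′ to 3′ in lower case. The intervals are chr13:12364990-12367362, minus strand, for Actn2, chr3:122709486-122716527, minus strand, for Myoz2, chr1:75363404-75363629, plus strand, for Des, chr1:137747976-137748288, plus strand, for Tnnt2, and chr11:5798186-5798435, minus strand, for Myl7. Each probe is 60 bases long.
Actn2: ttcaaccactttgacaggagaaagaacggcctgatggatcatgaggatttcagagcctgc
Myoz2: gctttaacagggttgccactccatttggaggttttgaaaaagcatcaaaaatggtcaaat
Des: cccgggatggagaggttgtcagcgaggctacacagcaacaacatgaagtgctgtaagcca
Tnnt2: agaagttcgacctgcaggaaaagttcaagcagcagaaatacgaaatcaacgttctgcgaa
Myl7: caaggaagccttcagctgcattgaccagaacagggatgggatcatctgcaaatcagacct

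The values below are the log2 ratios of the authors' deposited table, in columns named as mutant against wild type, and the spread given with a mean is the SD over the 4 arrays. The direction of these ratios is likely but not settled by the labels, which place mutant RNA in Cy5 on every array. Over probes brighter than 2000 in both channels, the deposited columns ran with the scanner's Cy5 over Cy3 on arrays 1 and 2 (slopes of 1.03 and 1.01) and against it on arrays 3 and 4 (slopes of -0.99 and -1.01). Mutant and control signals on arrays 3 and 4 are therefore taken from Cy3 and Cy5 as the columns imply, and "read as labelled" below means Cy5 over Cy3 on all 4 arrays. Over 19603 genes the mutant over control ratios of arrays 1 and 2 had a correlation of 0.54, and those of arrays 3 and 4 of 0.45. Between the 2 orientations it was -0.32 for arrays 1 and 4 and -0.12 for arrays 2 and 4, or 0.32 and 0.12 read as labelled. Array 3 had correlations close to 0 with array 1 (0.054) and array 2 (0.016), or -0.054 and -0.016 read as labelled. Genes of the transcriptome share these arrays and are not independent. The share of probes read well above background ran from 66.6% to 71.2% over the channels, and 0 spots were saturated. The targeted gene, Hdac3, had log2 ratios of -0.22, -0.50, -0.52 and -1.15, below 0 on 4 of 4 arrays, and its mean was -0.60 ± 0.39 (limma adjusted p = 0.585), or 0.24 read as labelled.

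Between Hdac3 mutant and control hearts, most mean ratios of the sarcomere genes lay close to 0, and none stood apart from the spread of the arrays by the test over all genes. Of the 39 genes, 38 were well above background in all 8 channels, and 0 of these 38 passed an adjusted p of 0.05 (limma, Benjamini-Hochberg over 19603 genes), where 0% of all genes passed in either direction. The mean ratio was above 0 for 23 genes and below 0 for 15, against 53.5% above 0 over all genes tested. The median of the 38 means was 0.036, against 0.011 over all genes. At an unadjusted p of 0.05, 3 genes were higher in mutants (3.88% of all genes were) and 0 were lower (4.58% of all genes were). With array weights 0 of the 38 genes passed an adjusted p of 0.05 (0.0204% of all genes did), and on arrays 1 and 2 alone 0 of the 38 passed (0.158% of all genes did). The 3 genes with an unadjusted p under 0.05 were Myom2, Tcap and Xirp1, each with an adjusted p of 0.585. In size, 22 of the 38 means were under 0.1 and 7 were over 0.2, and only 4 exceeded their own SD. These counts of size were not made over all genes, so whether they are typical of the arrays is not known.

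The arrays differed more for these genes than for most. The median SD over the 4 arrays was 0.27 for the 38 genes, against 0.19 over all genes. Within an array, the SD of the ratios of all genes tested was 0.21, 0.23, 0.43 and 0.26 on arrays 1 to 4. Array 3 was thus the widest over all genes, and its ratios were not rescaled. Large values on array 3 are to be read against that width. On array 1 their median ratio was -0.0094, on array 2 it was 0.16, on array 3 it was -0.044 and on array 4 it was -0.009, whereas the all-gene medians lay between 0.001 and 0.011. Only array 2 was above 0, and without it the median of the 38 genes was -0.028 and 15 of them, not 23, had a mean above 0. Only 3 genes (Tnni3, Xirp1 and Tcap) were above 0 on all 4 arrays, as 10% of all genes were, and 1 (Tmod1) was below 0 on all 4, as 9.72% were.

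**Figure D1:**
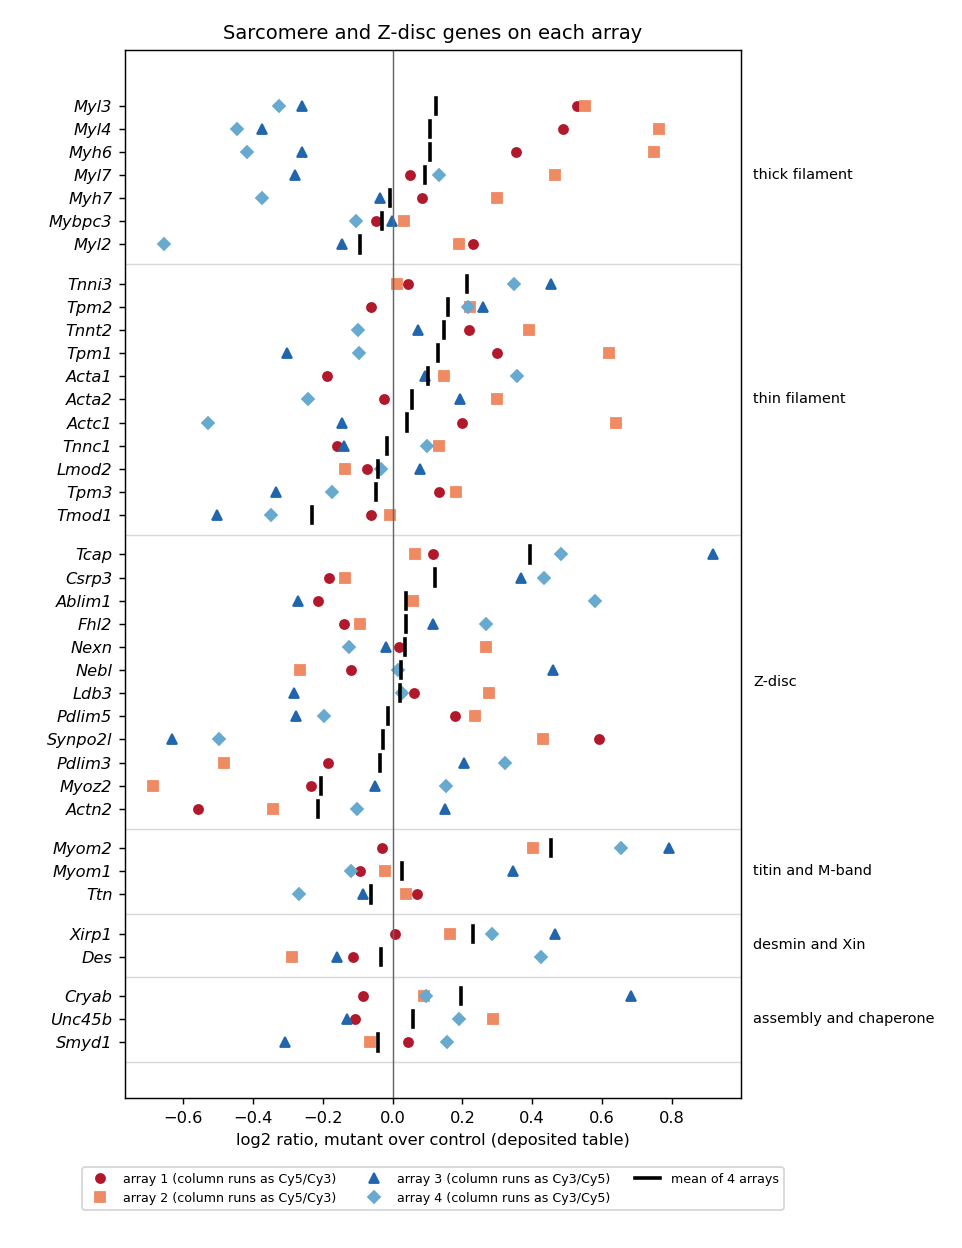
Log2 ratio of mutant over control pools (x axis, deposited table) for the 38 sarcomere and Z-disc genes above background, grouped by structure and ordered by mean. Each symbol is 1 array, red for columns that run as Cy5 over Cy3 and blue for the others, and the black bar is the mean of 4 arrays. Means run from -0.23 (Tmod1) to 0.45 (Myom2), and red and blue symbols lie on opposite sides of 0 for most thick filament genes.

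The medians of the thick filament genes spread over 0.84 between arrays, which was the widest range of the 6 structural groups in the deposited ratios and after loess. With the scanner's processed ratios it was 0.33, against 0.44 for titin and the M-band and 0.41 for desmin and Xin. This group holds the myosin heavy chains Myh6 (alpha) and Myh7 (beta), which are the motors of the filament, the light chains Myl2, Myl3, Myl4 and Myl7, which bind the neck of the motor, and Mybpc3, the myosin-binding protein that regulates it. Their means ran from -0.094 to 0.12, with 4 above 0, 3 below and 0 of 7 called. Myh6 had processed signals of 85349.5, 90146, 111854 and 88073 in mutant pools on arrays 1 to 4, against 78366, 62334, 121423 and 97454 in control pools, and log2 ratios of 0.35, 0.75, -0.26 and -0.42 (mean 0.11 ± 0.54, adjusted p = 0.878). It was above 0 on arrays 1 and 2 and below 0 on arrays 3 and 4, so the groups overlapped. For Myh7, the heavy chain of the embryonic ventricle, mutant pools had signals of 88658, 92100.1, 144383 and 100734 and control pools 100777, 90247, 130784 and 105766, and the ratios were 0.085, 0.30, -0.037 and -0.37 (mean -0.0067 ± 0.28, adjusted p = 0.99). The sign changed between the same pairs of arrays, and the mean lay close to 0.

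Myl2, the ventricular regulatory light chain, read 87695, 87115, 130439 and 77581 in mutant pools and 89447, 91916, 128271 and 101513 in control pools, with ratios of 0.23, 0.19, -0.14 and -0.65 (mean -0.094 ± 0.41, adjusted p = 0.859). Array 4 gave the lowest value and arrays 1 and 2 gave values above 0. Myl7, the atrial regulatory light chain, read 62320.5, 69509, 82009 and 95154 in mutant pools and 69805, 58021, 90737 and 72444 in control pools, with ratios of 0.051, 0.47, -0.28 and 0.13 (mean 0.092 ± 0.31, adjusted p = 0.827). It was above 0 on 3 of 4 arrays, with array 3 the exception. The essential light chains Myl3 (ventricular) and Myl4 (atrial and embryonic) had means of 0.12 ± 0.48 and 0.11 ± 0.61, and their ratios reached 0.55 and 0.76 on array 2. Both were again positive on arrays 1 and 2 and negative on arrays 3 and 4. Mybpc3 varied least of the group, with ratios of -0.047, 0.034, -0.0010 and -0.10 and a mean of -0.029 ± 0.060. The group's median was 0.23, 0.46, -0.26 and -0.37 on arrays 1 to 4. Its median of means, 0.092, turned to -0.019 without array 1 and to -0.11 without array 2.

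**Figure D2:**
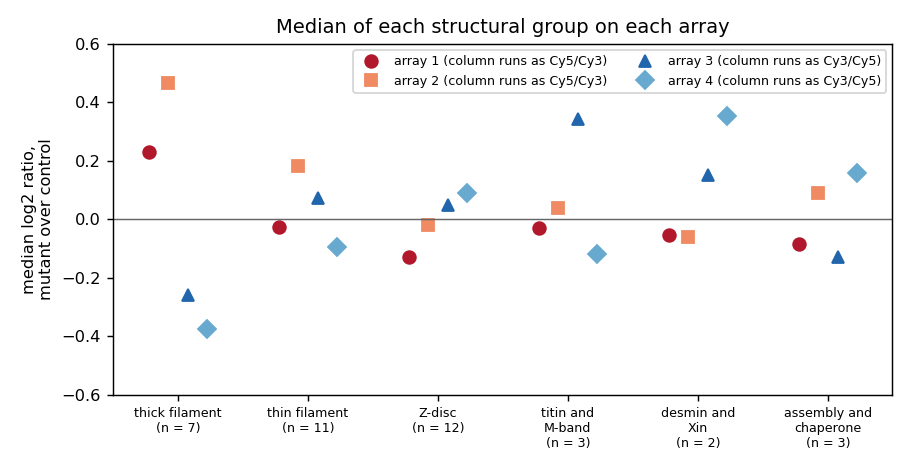
Median log2 ratio of mutant over control pools (y axis) in each structural group on each of the 4 arrays, with the number of genes measured under each name. The thick filament group lies at 0.23 and 0.46 on arrays 1 and 2 and at -0.26 and -0.37 on arrays 3 and 4.

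Among the 11 thin filament genes, the actins, tropomyosins, troponins and their capping and nucleating partners, 7 means were above 0, 4 were below and 0 were called, with a median of 0.056 that turned to -0.024 without array 2. Actc1, the cardiac alpha-actin, had signals of 135920, 144966, 202151 and 127429 in mutant pools and 148516, 119505, 189307 and 142577 in control pools, and ratios of 0.20, 0.64, -0.14 and -0.53 (mean 0.041 ± 0.50, adjusted p = 0.957). Arrays 2 and 4 lay more than 1 log2 unit apart, one above and one below 0. Acta1, the skeletal alpha-actin that embryonic cardiomyocytes also use, had 15217, 18744, 25505 and 32517 in mutant pools and 17108, 16857, 24337 and 25067 in control pools, and ratios of -0.19, 0.15, 0.092 and 0.36 (mean 0.10 ± 0.22, adjusted p = 0.765). Array 1 was its only value below 0. Acta2, the smooth muscle alpha-actin, which is also found in early cardiomyocytes, had 70209, 81721, 146843 and 102343 in mutant pools and 83309.9, 79178, 114402 and 100638 in control pools, with ratios of -0.025, 0.30, 0.19 and -0.24 (mean 0.056 ± 0.24, adjusted p = 0.883). Its ratios lay on both sides of 0 within each pair of arrays.

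Tnnt2, the cardiac troponin T that ties the troponin complex to tropomyosin, had signals of 67961, 65209.9, 97402 and 81658 in mutant pools and 67873, 57170.2, 86367 and 79075 in control pools. Its ratios were 0.22, 0.39, 0.073 and -0.098 (mean 0.15 ± 0.21, adjusted p = 0.667), above 0 on 3 arrays. Tnni3, the cardiac inhibitory troponin I, which replaces the slow skeletal isoform as the heart matures, had 19239, 20364, 30199.7 and 32305 in mutant pools and 18359, 19874, 22829 and 25292 in control pools. With ratios of 0.043, 0.014, 0.45 and 0.35 it was above 0 on all 4 arrays (mean 0.21 ± 0.22, adjusted p = 0.607), but arrays 1 and 2 were close to 0 and the mean was about the size of the SD. Tnnc1, the calcium-binding troponin C of heart and slow muscle, had a mean of -0.017 ± 0.15.

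The tropomyosins, which lie along actin and control access of myosin to it, gave means on both sides of 0. Tpm2 had signals of 935, 1238, 2092 and 2295 in mutant pools and 1003, 1068, 1746 and 2079 in control pools, and ratios of -0.062, 0.22, 0.26 and 0.21 (mean 0.16 ± 0.15, adjusted p = 0.618). Arrays 2 to 4 were close together and array 1 stood apart below 0. Tpm3 read 33345, 35983, 41277 and 42572 in mutant pools and 32636, 33326, 50650.1 and 46232 in control pools, with ratios of 0.13, 0.18, -0.33 and -0.17 (mean -0.048 ± 0.25, adjusted p = 0.904), which changed sign between arrays 1 and 2 and arrays 3 and 4. Tpm1, the main cardiac tropomyosin, had ratios of 0.30, 0.62, -0.30 and -0.095 and a mean of 0.13 ± 0.41. Tmod1, tropomodulin 1, caps the pointed end of the thin filament and was the lowest of the 38 genes. It had signals of 2447, 2794, 2930.4 and 5119 in mutant pools and 2542, 2780.1, 4215 and 6582 in control pools, and ratios of -0.062, -0.0070, -0.50 and -0.35 (mean -0.23 ± 0.24, adjusted p = 0.602). Below 0 on all 4 arrays, it lay far below 0 only on arrays 3 and 4. Lmod2, leiomodin 2, which lengthens the filament at the same end, had a mean of -0.042 ± 0.090.

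Of the 12 Z-disc genes, 7 had means above 0 and 5 below, and 0 were called. Their median was 0.022, which turned to -0.097 on arrays 1 and 2 alone, -0.0047 without array 2, -0.068 with array weights and -0.18 read as labelled. Tcap, telethonin, joins the ends of neighbouring titin molecules at the Z-disc and had the second highest mean of all 38 genes. Its signals were 7615, 7449, 16234 and 11949 in mutant pools, against 6728, 6923, 9161 and 9218 in control pools, and its ratios were 0.12, 0.064, 0.92 and 0.48 (mean 0.39 ± 0.39, a 1.31-fold difference, adjusted p = 0.585). All 4 values were above 0, yet most of the mean came from arrays 3 and 4. The lowest mean of the group belonged to Actn2, the alpha-actinin that crosslinks actin in the Z-disc, with signals of 5221, 6165, 10821 and 12026 in mutant pools and 7524, 7711, 10016 and 12956 in control pools. Actn2 had ratios of -0.56, -0.34, 0.15 and -0.10 (mean -0.21 ± 0.30, adjusted p = 0.634), lower on arrays 1 and 2 than on arrays 3 and 4.

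Myoz2, a calsarcin that binds alpha-actinin and calcineurin, read 572, 444, 562 and 794 in mutant pools and 700.2, 730.1, 562 and 728 in control pools, with ratios of -0.23, -0.69, -0.051 and 0.15 (mean -0.20 ± 0.36, adjusted p = 0.67). Array 2 held most of this difference. Csrp3, the muscle LIM protein, had ratios of -0.18, -0.14, 0.37 and 0.43 (mean 0.12 ± 0.33), and Pdlim3, a PDZ and LIM protein that binds alpha-actinin, had -0.19, -0.48, 0.20 and 0.32 (mean -0.035 ± 0.37). These 2, with Fhl2 and Nebl, ran opposite to the thick filament genes, negative on arrays 1 and 2 and positive on arrays 3 and 4. Fhl2, a LIM-domain cofactor, averaged 0.038 ± 0.19, and Nebl, nebulette, which lies along the actin at the Z-disc, averaged 0.023 ± 0.31. The remaining Z-disc means were 0.021 ± 0.23 for Ldb3 (Cypher), -0.014 ± 0.26 for Pdlim5 (ENH), 0.035 ± 0.17 for the actin-binding nexilin Nexn, and 0.039 ± 0.39 for the actin-binding Ablim1.

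Synpo2l, a Z-disc protein of the synaptopodin family, had the widest spread of the 38 genes. In mutant pools its signals were 5271, 5554, 5711 and 6805, against 3419, 4051, 9207 and 10124 in control pools, and its ratios were 0.59, 0.43, -0.63 and -0.50. The mean was -0.027 ± 0.63 (adjusted p = 0.979), with 2 large positive and 2 large negative values. Read as labelled, Synpo2l was the single gene of the 38 to pass, at 0.54 ± 0.09 (limma adjusted p = 0.0412), where 0.678% of all genes passed as higher in Cy5 and 0.0306% as lower. The scanner's processed ratios read as labelled, a setting chosen after seeing the data, gave 0.59 with a limma adjusted p of 0.06.

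**Figure D3:**
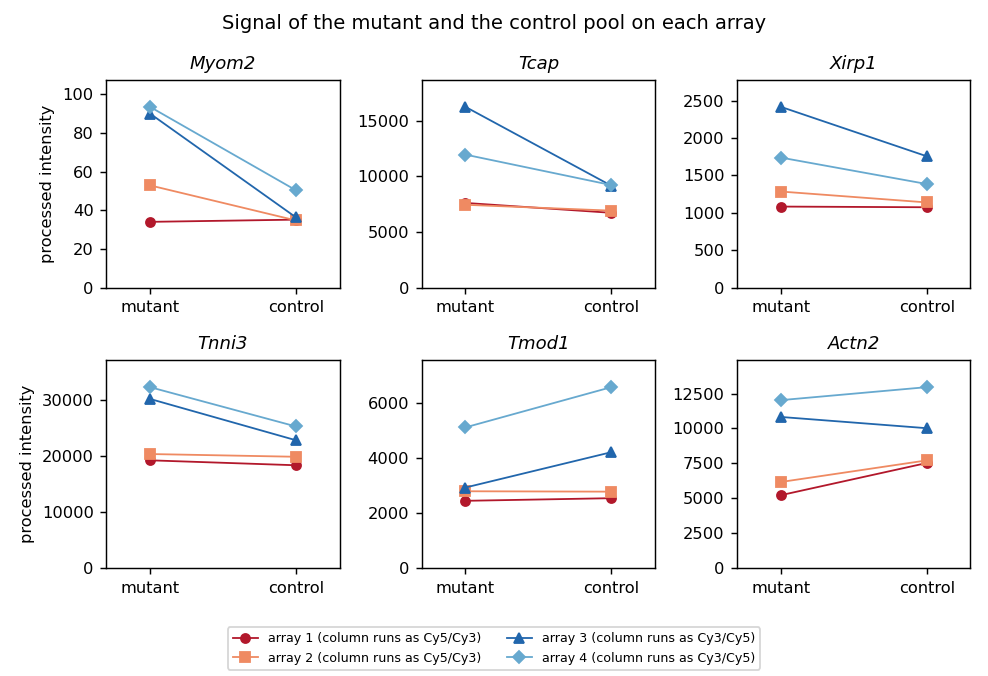
Processed intensity (y axis, arbitrary units from 0) of the mutant and the control pool on each array for 6 genes, with lines joining the pools of 1 array. Mutant values of Tcap, Xirp1 and Tnni3 lie above the control values on all 4 arrays, and most clearly on arrays 3 and 4, while Actn2 is lower in mutants on arrays 1, 2 and 4.

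Titin and the M-band proteins, which hold thick filaments in register, gave 2 means above 0 and 1 below. Ttn had signals of 11408, 12250, 16038 and 15782 in mutant pools and 10469, 11550, 17861 and 19768 in control pools, and ratios of 0.069, 0.038, -0.084 and -0.27 (mean -0.061 ± 0.15, adjusted p = 0.833). Its values were small on every array. Myom1, myomesin 1, averaged 0.028 ± 0.22. Myom2, myomesin 2 of the adult heart and fast muscle, had the highest mean of the 38 genes at a low signal, 34.1, 52.9, 90 and 93.5 in mutant pools and 35.2, 34.8, 36.4 and 50.4 in control pools. Its ratios were -0.031, 0.40, 0.79 and 0.65 (mean 0.45 ± 0.36, a 1.37-fold difference, adjusted p = 0.585), above 0 on 3 of 4 arrays. The mean of Myom2 was 0.27 after normexp and loess on the scanner signals, 0.69 with the scanner's processed ratios, 0.21 with array weights, 0.19 on arrays 1 and 2 alone and -0.27 read as labelled.

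Des and Xirp1 were measured among the genes of the sarcomere's lateral and junctional edges. Des, desmin, the muscle intermediate filament, had signals of 2576, 2206, 2923 and 4195 in mutant pools and 2759, 2675, 3265 and 3159.7 in control pools, and ratios of -0.11, -0.29, -0.16 and 0.42 (mean -0.034 ± 0.31, adjusted p = 0.948). It was below 0 on 3 arrays and above 0 on array 4. Xirp1, a Xin repeat protein that binds actin at cell junctions, had 1085, 1285, 2416 and 1739 in mutant pools and 1076, 1140.0, 1757 and 1386 in control pools, with ratios of 0.0060, 0.17, 0.47 and 0.29 (mean 0.23 ± 0.19, adjusted p = 0.585). Array 1 lay at 0.006 and the other arrays lay above it. Xirp2, its paralog, was not well above background in any of the 8 channels, with signals of 2.22, 2.13, 5.79 and 5.44 in mutant pools and 4.12, 4.45, 3.18 and 3.56 in control pools, and was not tested.

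The assembly factors had a median of 0.06. Cryab, the small heat shock protein that protects desmin and titin, had signals of 21197, 24346, 50874 and 40102 in mutant pools and 22989, 23080.5, 32032 and 37738 in control pools, and ratios of -0.084, 0.091, 0.68 and 0.096 (mean 0.20 ± 0.33, adjusted p = 0.669). Array 3, the widest array over all genes, gave most of that mean. Unc45b, the myosin chaperone, averaged 0.060 ± 0.21, and Smyd1, a muscle methyltransferase that takes part in thick filament assembly, averaged -0.043 ± 0.20. Both had ratios on either side of 0.

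Some of the sign changes described above followed the direction in which each column ran. Of the 38 genes, 12 were above 0 on arrays 1 and 2 and below 0 on arrays 3 and 4, the pattern of 13.2% of all genes, and 4 had the opposite pattern, which 13.7% of all genes had. The 12 were Pdlim5, Synpo2l, Ttn, Nexn, Tpm3, Myh6, Myl2, Myh7, Tpm1, Myl3, Myl4 and Actc1, so 5 of the 7 thick filament genes were among them. In each, the deposited ratios put Cy5 above Cy3 on all 4 arrays, and a dye effect cannot be told apart from a mutant effect of one sign that the columns turned on arrays 3 and 4. The pattern was common among the brightest genes. Of those with a mean processed signal of 91875 (Myh6) or more, only Acta2 (97330) lacked it. The thick filament genes without it, Mybpc3 and Myl7, had 56438.5 and 75000, less than the 5 with it. Dimmer genes such as Pdlim5 (4824) and Synpo2l (6268) had it too. The part of signal strength and of structural group in the pattern was not tested. The normalization mattered to this pattern. The same 12 genes had it after loess on the scanner signals, and 8 had it with the scanner's processed ratios, where Actc1, Myh7, Myl2 and Tpm1 no longer did. The thick filament median read as labelled was 0.30 in the deposited table and 0.072 with the processed ratios. For Actc1 the processed ratios were -0.12, 0.29, 0.085 and -0.17 on arrays 1 to 4, with a mean of 0.022 ± 0.21. In 15 of the 152 gene and array values of the 38 genes, the processed signals order the pools differently from the deposited ratio. Not all of these signals are given above.

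Read as labelled, all 7 thick filament genes had means above 0, 4 of the 12 Z-disc genes did, and the sign of the mean turned for 22 of the 38 genes. Myl4 then averaged 0.52, Myh6 0.44, Myl3 0.42 and Actc1 0.38, while Tcap averaged -0.30, Csrp3 -0.28 and Myom2 -0.27. At an unadjusted p of 0.05, 9 genes were then higher in Cy5 (7.57% of all genes were) and 2 were lower (7.52% of all genes were). The median of the 38 genes was 0.026 in that reading, against -0.00025 over all genes.

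**Figure D4:**
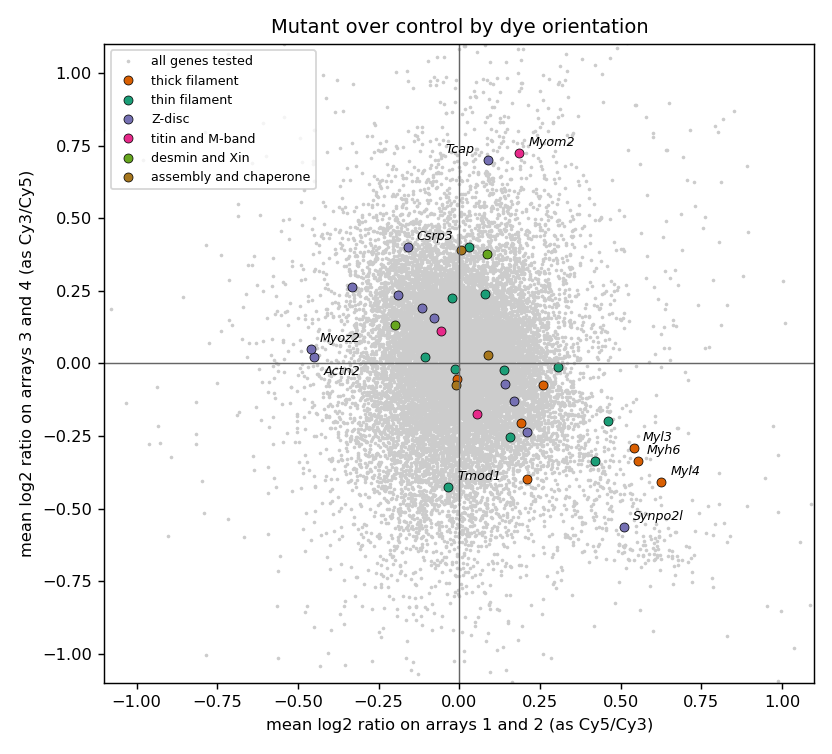
Mean log2 ratio of mutant over control pools on arrays 1 and 2 (x axis) against that on arrays 3 and 4 (y axis), for all 19603 genes tested in grey and the 38 sarcomere genes in colour by structural group. Both axes stop at 1.1 on either side of 0, which leaves out 138 genes. Synpo2l, Myl4, Myh6 and Myl3 lie at the lower right, where the 2 pairs of arrays have opposite signs, and Tcap and Myom2 lie at the top.

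Isoforms that replace one another during heart development were compared within each array, which removes shifts common to both genes. Myh7 minus Myh6 was -0.27, -0.45, 0.22 and 0.042 on arrays 1 to 4, with a mean of -0.11 ± 0.30 (exact two-sided sign-flip permutation p = 0.5). That mean was -0.28 with all probes averaged (exact permutation p = 0.13), -0.36 on arrays 1 and 2 alone and -0.002 without array 2. Myl2 minus Myl7 was 0.18, -0.28, 0.14 and -0.79, with a mean of -0.19 ± 0.45 (exact permutation p = 0.625). Acta1 minus Actc1 averaged 0.06 ± 0.64 (exact permutation p = 0.875), and Acta2 minus Actc1 averaged 0.015 ± 0.35 (exact permutation p = 1). None of these 4 differences exceeded its SD, each had 2 arrays above 0 and 2 below, and all 4 had an adjusted p of 1, in a design whose smallest exact p is 0.13. Read as labelled, Acta1 minus Actc1 averaged -0.50, Acta2 minus Actc1 -0.30 and Myh7 minus Myh6 -0.25, each below 0 on 4 of 4 arrays (exact permutation p = 0.13 for each, the smallest 4 arrays can give). With the scanner's processed ratios, Acta1 (0.058) lay below Actc1 (0.085) on array 3, so their difference read as labelled was not below 0 there. Acta2 minus Actc1 and Myh7 minus Myh6 kept their sign on each array. Actc1 read as labelled then averaged 0.062, against 0.38 in the deposited ratios.

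**Figure D5:**
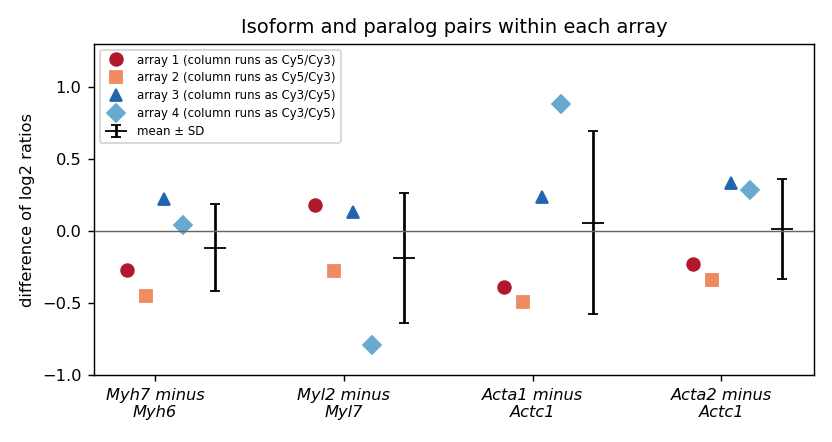
Difference of 2 log2 ratios of mutant over control pools (y axis) within each of the 4 arrays for 4 pairs of related genes, with the mean and SD in black. Values of every pair lie on both sides of 0, and arrays 1 and 2 are below 0 for Myh7 minus Myh6, Acta1 minus Actc1 and Acta2 minus Actc1.

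Further probes of the same genes did not always read alike. Of the 38 genes, 12 had more than 1 probe, with 21 further probes in all, and 11 of these, in 8 genes, had a mean of opposite sign to the probe used. For Ttn the 3 further probes averaged 0.097 ± 0.13, 0.35 ± 0.23 and 0.17 ± 0.28, all above 0, against -0.061 ± 0.15 for the probe used. The second Myh6 probe averaged 0.43 ± 0.52, with 1.20 on array 3, where the probe used read -0.26. The second Cryab probe averaged -0.073 ± 0.18 and 1 Tpm1 probe averaged -0.26 ± 0.25. Actn2 had a second, dim probe that averaged 0.23 ± 0.43. The probes are annotated to different transcripts in part, and whether this accounts for the differences was not tested. Myh6 and Myh7, and the actins Actc1, Acta1 and Acta2, are near-identical in sequence over long stretches, and cross-hybridisation between them was not tested.

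Promoters were searched for the sites of SRF and MEF2 in the 250 bases before each gene's start, on both strands, in RefSeq sequence of GRCm38.p6, which held an entry for 34 of the 39 genes. A CArG box was found in 8 of these 34 (23.5%), Myl3, Myl7, Actc1, Acta1, Ldb3, Nebl, Fhl2 and Myom1, and in 1.62% of 27025 promoters of the same length. Their means were all above 0, between 0.02 and 0.12 with a median of 0.04, but only 4 of the 8 were above 0 read as labelled and 4 were below 0 without array 2. Of the 25 other measured genes with a promoter entry, 10 had means above 0 and the median was -0.016. The 5 genes without an entry, Myom2, Tcap, Xirp1, Cryab and Nexn, are in neither count. Their means were all above 0, at 0.45, 0.39, 0.23, 0.20 and 0.035, and include the highest of the 38 genes. The MEF2 site was found in 6 (17.6%, against 3.42% of all), with 1 of 5 measured means above 0, and TATAAA in 6 (17.6%, against 14.3%). These are letters in a window and no test was made of them. The promoters of 4 of the CArG genes are shown because their ratios are described above, with the box in capitals. It begins 47 bases before the start in Actc1, 73 in Acta1, 85 in Myl3 and 61 in Myl7. The windows are chr2:114052876-114053125, minus strand, for Actc1, chr8:123894776-123895025, minus strand, for Acta1, chr9:110763428-110763677, plus strand, for Myl3, and chr11:5898783-5899032, minus strand, for Myl7.
Actc1: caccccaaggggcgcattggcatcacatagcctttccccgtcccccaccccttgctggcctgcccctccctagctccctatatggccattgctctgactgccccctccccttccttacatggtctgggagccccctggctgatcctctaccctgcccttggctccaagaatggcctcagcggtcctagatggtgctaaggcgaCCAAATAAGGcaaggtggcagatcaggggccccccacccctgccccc
Acta1: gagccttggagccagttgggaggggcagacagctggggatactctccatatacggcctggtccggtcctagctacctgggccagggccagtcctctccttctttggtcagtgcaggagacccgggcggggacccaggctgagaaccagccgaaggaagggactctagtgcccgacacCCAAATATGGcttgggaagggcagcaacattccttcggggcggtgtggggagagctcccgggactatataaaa
Myl3: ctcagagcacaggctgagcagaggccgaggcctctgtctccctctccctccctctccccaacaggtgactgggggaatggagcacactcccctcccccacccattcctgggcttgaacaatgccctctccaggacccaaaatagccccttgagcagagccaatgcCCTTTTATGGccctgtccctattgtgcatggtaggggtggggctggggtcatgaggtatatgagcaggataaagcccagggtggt
Myl7: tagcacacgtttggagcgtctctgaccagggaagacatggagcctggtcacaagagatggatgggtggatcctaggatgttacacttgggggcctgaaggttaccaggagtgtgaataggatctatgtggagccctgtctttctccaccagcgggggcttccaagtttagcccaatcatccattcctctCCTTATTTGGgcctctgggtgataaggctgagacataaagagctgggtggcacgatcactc

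Other genes of muscle were set beside these. Of 64 further sarcomere genes 58 were measured, with 38 means above 0 and 20 below, 0 called and a median of 0.071, or -0.027 read as labelled. At an unadjusted limma p of 0.05, 9 of the 58 were higher (3.88% of all genes were) and 1 was lower (4.58% of all genes were). The highest by p were the slow troponin T Tnnt1 (0.60 ± 0.17), the fast troponin C Tnnc2 (0.93 ± 0.47) and the fast troponin I Tnni2 (0.51 ± 0.21), each above 0 on 4 of 4 arrays with a limma adjusted p between 0.577 and 0.585. On the other side stood Smpx, a small muscle protein (-0.34 ± 0.10, below 0 on 4 of 4 arrays), Tmod2 (-0.18 ± 0.15) and Tmod3 (-0.35 ± 0.45). Read as labelled, the means were 0.087 for Tnnt1, -0.22 for Tnnc2, -0.12 for Tnni2, 0.022 for Smpx, -0.11 for Tmod2 and 0.37 for Tmod3. Myod1, Myog, Myf5 and Myf6, the regulators that define skeletal muscle, were not well above background, and the 9 measured of 18 skeletal muscle and somite markers had a median of 0.073 (-0.047 read as labelled), with summed signals of 330.3 to 488 in mutant pools and 372 to 410.2 in control pools.

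The 17 genes of the SRF, MEF2 and cardiac regulators that act on sarcomere genes gave 12 means above 0 and 5 below, with 0 called. Mkl1, a coactivator of SRF, averaged 0.25 ± 0.22, Tbx5 0.20 ± 0.15 and Gata4 0.18 ± 0.12, each above 0 on 4 of 4 arrays, while Mef2a averaged -0.21 ± 0.29, Nkx2-5 -0.079 ± 0.36 and Gata6 -0.027 ± 0.13. Read as labelled, they averaged -0.18, 0.033 and -0.018 for Mkl1, Tbx5 and Gata4, and 0.21, 0.25 and 0.098 for Mef2a, Nkx2-5 and Gata6. Among 9 measured of 10 smooth muscle genes, which include Des, 5 were above 0 and 4 below, and Myh11, which defines mature smooth muscle, was not well above background. Cald1 averaged 0.28 ± 0.38, Lmod1 0.22 ± 0.34 and Mylk 0.10 ± 0.15 on the higher side, and Cnn1 averaged -0.014 ± 0.20 and Synpo2 -0.011 ± 0.33 on the lower. Read as labelled, the smooth muscle median was -0.046, against 0.059, and Cald1, Lmod1 and Mylk averaged 0.12, -0.21 and -0.046.

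Markers of other cells that a dissected heart can hold had medians on both sides of 0, with 0 called in any list, as 0% of all genes were. At an unadjusted limma p of 0.05, 6 liver, 4 endocardial and 1 foregut endoderm marker were higher (3.88% of all genes were). At the same threshold 4 erythroid, 2 epicardial, 1 endocardial and 1 neural marker were lower (4.58% of all genes were). Endocardial and endothelial markers were above 0 for 11 of 15 (median 0.15, summed signals of 27824 to 59342 in mutant pools and 27515 to 38693 in control pools), pharyngeal and foregut endoderm markers for 6 of 6 measured (median 0.18, 20202 to 45254 in mutant pools and 20727 to 34992 in control pools) and liver bud and visceral endoderm markers for 8 of 9 measured (median 0.35, 2413 to 3418 in mutant pools and 1887 to 3120 in control pools). Foxa1, Shh and Nkx2-1 of the endoderm and Alb and Hnf4a of the liver were not well above background. Primitive erythroid markers were above 0 for 2 of 14 (median -0.21, summed signals of 18669 to 23880 in mutant pools and 20176 to 30687 in control pools), epicardial markers for 1 of 10 (median -0.18, 3776 to 5942 in mutant pools and 4706 to 6084 in control pools) and neural markers for 2 of 6 measured (median -0.11, 1484 to 2273 in mutant pools and 1589.9 to 2875 in control pools). Pax6, Olig2 and Neurog2 of the neural tube were not well above background. Read as labelled, the medians were -0.037 for the endocardial, -0.097 for the foregut endoderm, 0.10 for the liver, -0.075 for the erythroid, -0.076 for the epicardial and 0.075 for the neural list. The part of these cells in the ratios of the sarcomere genes was not tested.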

How the data were processed

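Per the labels, total RNA of mutant and control heart pools was labelled with Cy5 and Cy3 and hybridised to 4 two-colour arrays. Per the file headers, the authors' scanner output gives each spot's mean signal, local background and processed intensity (background subtracted and dye normalized), with a log10 ratio of Cy5 over Cy3, from Feature Extraction 11.5.1.1, whereas the submitters' processing notes name version 8.5.1.1. The authors' deposited table holds log2 ratios (normalization not given in the sources used here). The table's scale and direction were set against the scanner's ratios, and the column medians were -0.027, -0.017, 0.021 and 0.025.

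Control spots were left out, deposited ratios of 1 probe were averaged, and 19603 genes well above background on 4 arrays in either group were kept. Ratios were tested against 0 with limma 3.58.1 in R 4.3.3 (lmFit, eBayes), adjusted by Benjamini-Hochberg over all of these genes, at a threshold of 0.05, with each array as a pair of pools. Where nothing says that pools came from separate litters, p-values measure the spread between these pools. The main fit had no dye term, so its spread also holds any part that followed the dye. The lowest limma adjusted p of the 38 genes was 0.585 in the main fit and 0.242 with a dye term. Alternatives were normexp (offset 50) with loess and without spots flagged as outliers (308 to 407 per array), processed ratios, all arrays as labelled, a dye term, array weights, other filters, all probes, no replicate block and leaving out each array. Only the limma fit was run on simulated ratios, with independent noise on each array. That noise lacks the correlation seen between these arrays, and the simulation did not cover orientation, normalization, probe choice or filtering. The members and the other lists were chosen with earlier results of these data known, so they are no independent evidence of direction. All members are named, with full values for core genes and the 6 highest and 6 lowest means, and for the other lists the 3 of smallest p in each direction.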

Additional observations from a re-analysis of the deposited data

Results flagged for a closer look

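Of the 43 sets of 4 values examined (each gene and each difference between isoforms), 1 held a value far from the other 3, and chance gives about 1 in 20. For Tpm2, array 1 read -0.062, whereas arrays 2 to 4 read 0.22, 0.26 and 0.21. The gap between array 1 and the nearest other value was a share of 0.86 of the whole range, above Dixon's critical value for 4 values.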

How the results depend on the processing

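The count of 0 of the 38 genes called held under 11 of the 12 other settings and without each array in turn, and the exception was the reading with all arrays as labelled, which called 1, Synpo2l. Over all genes, that reading called 139, arrays 1 and 2 alone called 31, array weights called 4, the scanner's processed ratios read as labelled (a setting chosen after seeing the data) called 16, and leaving out an array called between 0 and 2, with 2 without array 1. Counts at an unadjusted p under 0.05 were 760 higher and 898 lower as reported, 1483 and 1474 read as labelled, 1417 and 1575 with a dye term, 2440 and 2108 with array weights, 2723 and 2510 on arrays 1 and 2 alone and 338 and 317 with no replicate block, that is with the pairing of pools on an array ignored, where 0 genes passed. The median of the 38 genes was 0.036 as reported, ran between -0.028 and 0.061 when an array was left out, and was -0.057 with the processed ratios read as labelled, while 15 to 28 genes had a mean above 0 when an array was left out (15 without array 2). Loess on the scanner signals, processed ratios, a dye term, centring, both filters on dim probes and no replicate block turned the sign of 0 of the 38 means. Read as labelled, the mean turned to -0.30 for Tcap, -0.28 for Csrp3, -0.27 for Myom2, -0.21 for Nebl, -0.19 for Cryab, -0.19 for Tnni3, -0.15 for Fhl2, -0.14 for Xirp1, -0.12 for Acta1, -0.12 for Ablim1, -0.086 for Myom1, -0.079 for Tpm2, 0.0030 for Tnnc1, 0.023 for Mybpc3, 0.032 for Smyd1, 0.11 for Ttn, 0.20 for Tmod1, 0.20 for Myh7, 0.21 for Tpm3, 0.22 for Pdlim5, 0.30 for Myl2 and 0.54 for Synpo2l. Processed ratios read as labelled gave -0.40 for Myom2, -0.27 for Csrp3, -0.22 for Tcap, -0.20 for Nebl, -0.19 for Cryab, -0.16 for Tnni3, -0.14 for Xirp1, -0.14 for Acta2, -0.12 for Ablim1, -0.11 for Acta1, -0.090 for Fhl2, -0.071 for Myom1, -0.065 for Tpm2, -0.030 for Myl7, 0.037 for Smyd1, 0.072 for Myl2, 0.15 for Tpm3, 0.18 for Ttn, 0.22 for Tmod1, 0.24 for Pdlim5 and 0.59 for Synpo2l. On arrays 1 and 2 alone it turned to -0.19 for Nebl, -0.16 for Csrp3, -0.12 for Fhl2, -0.077 for Ablim1, -0.058 for Myom1, -0.021 for Acta1, 0.053 for Ttn, 0.16 for Tpm3, 0.19 for Myh7, 0.21 for Pdlim5, 0.21 for Myl2 and 0.51 for Synpo2l. With array weights it turned to -0.13 for Nebl, -0.092 for Csrp3, -0.079 for Fhl2, -0.057 for Ablim1, -0.051 for Myom1, -0.015 for Acta1, 0.024 for Ttn, 0.10 for Tpm3, 0.12 for Myh7, 0.13 for Myl2, 0.15 for Pdlim5 and 0.39 for Synpo2l, and with the mean of all probes to 0.011 for Actn2, 0.035 for Pdlim5, 0.046 for Smyd1, 0.14 for Ttn and 0.14 for Tpm3. When an array was left out, ranges that crossed 0 were -0.16 to 0.23 for Actc1, -0.018 to 0.27 for Myl3, -0.11 to 0.29 for Myl4, -0.15 to 0.11 for Pdlim3, -0.066 to 0.031 for Tnnc1, -0.024 to 0.16 for Acta2, -0.19 to 0.051 for Des, -0.065 to 0.12 for Ldb3, -0.11 to 0.28 for Myh6, -0.032 to 0.22 for Myl7, -0.042 to 0.088 for Nexn, -0.033 to 0.27 for Tpm1, -0.016 to 0.12 for Unc45b, -0.11 to 0.12 for Myh7, -0.078 to 0.076 for Myom1, -0.12 to 0.12 for Nebl, -0.098 to 0.073 for Pdlim5, -0.11 to 0.045 for Smyd1, -0.23 to 0.17 for Synpo2l, -0.12 to 0.047 for Tpm3, -0.14 to 0.14 for Ablim1, -0.039 to 0.097 for Fhl2, -0.20 to 0.092 for Myl2 and -0.10 to 0.0077 for Ttn. Differences between isoforms turned to 0.14 for Myl2 minus Myl7, -0.50 for Acta1 minus Actc1 and -0.30 for Acta2 minus Actc1 read as labelled, and to -0.44 and -0.28 for the last 2 on arrays 1 and 2 alone, with ranges of -0.23 to -0.002 for Myh7 minus Myh6, -0.31 to 0.014 for Myl2 minus Myl7, -0.21 to 0.24 for Acta1 minus Actc1 and -0.093 to 0.13 for Acta2 minus Actc1 when an array was left out. The cause of these changes was not tested. The number of arrays and the unsettled dye orientation limit every value, and the depth of an array is its signal over background, which left out Xirp2.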
